A study of Mus musculus with 7 samples.

Results

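Immune checkpoints are surface proteins that restrain T cells, and the ectoenzymes CD39 and CD73 work in parallel by turning extracellular ATP into adenosine, which dampens T cell activity through receptors on those cells. A total of 10 genes of these systems were described here, chosen as the rows of the deposited gene table that map to their symbols, of 55487 genes in all. They were the ligands Cd274 (PD-L1), Pdcd1lg2 (PD-L2), Cd276 (B7-H3) and Vsir (VISTA), the receptors Pdcd1 (PD-1), Ctla4, Havcr2 (TIM-3) and Lag3, and the enzymes Entpd1 (CD39) and Nt5e (CD73). In tumours, PD-L1 and PD-L2 on tumour or myeloid cells engage PD-1 on activated T cells. CD39 removes phosphates from ATP to leave AMP, and CD73 converts AMP to adenosine.

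The data were bulk RNA sequencing of primary tumours grown from luciferase-carrying 4T1-12b(luc) cells, a subline of a mouse mammary carcinoma line, placed in a mammary fat pad of mice of the BALB/c strain, labelled WT. From a size of about 150 mm3 the tumours received 6 injections of 50 µl, given on alternate days, and all libraries carry the label day 12. The 3 TIS sEV libraries came from tumours injected with small extracellular vesicles of 4T1 cells that had been made senescent with 100 ng/ml nocodazole, a microtubule poison, for 72 h and then kept in fresh medium for 72 h. The 1 Cont sEV library came from a tumour given vesicles of DMSO-treated 4T1 cells, and the 3 Saline libraries from tumours given saline. The labels do not say that replicates are separate animals, so p-values measure only the spread between these libraries, which may be technical. The vesicle columns of the table carry abbreviations, which were read as Cont sEV and TIS sEV. The labels do not spell this reading out, and all results for vesicle-treated tumours depend on it.

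Values were TPM, a measure of transcript abundance that accounts for transcript length and sums to 1000000 in each library. TPM keeps no depth, so the depth is unknown. TIS sEV replicate 2 stood apart, with 22.9% of its TPM in nuclear ribosomal RNA and 28.6% in nuclear protein-coding genes. The range over the other 6 libraries was 0.807% to 2.40% for the ribosomal and 56.8% to 74.7% for the protein-coding share. The median tested gene was 0.62 lower on the log2 scale in TIS sEV than in Saline. Differences are given below relative to the median gene, and levels also as TPM divided by a median-of-ratios size factor, called scaled TPM. Size factors were 1.25, 0.352 and 0.993 in the TIS sEV libraries, 1.00 in Cont sEV and 1.01, 1.51 and 1.51 in the Saline libraries. Keratins Krt8 and Krt18, markers of the epithelial tumour cells, were abundant in every library (218 to 1716 and 257 to 2119 TPM), and the leukocyte marker Ptprc was low (0.510 to 6.13 TPM). Single markers do not give the content of a cell type. The macrophage genes C1qa and Adgre1 had 169 to 611 and 1.10 to 6.49 TPM, and the neutrophil gene S100a9 354 to 4262 TPM. The keratin Krt5 of the epithelial list had 0 to 1.41 TPM.

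None of these genes passed the test between TIS sEV and Saline tumours, and Ctla4 was too low to be tested. The levels of Nt5e were lower and those of Pdcd1lg2, after scaling, higher in each vesicle-treated library than in each Saline library. Such a separation, in either direction, held for 19.5% of all tested genes on scaled TPM and for 12.4% on deposited TPM. Cd274, Cd276, Vsir, Entpd1 and the receptors overlapped between the groups. Limma, which tests all genes together on log2(TPM + 1), called 0 of the 9 genes that passed the filter on low values (at least 1 TPM in at least 3 libraries) at an adjusted p under 0.05. It called 0.514% of all 12058 tested genes, and on scaled TPM 0 of the 9 and 0% of all. At an unadjusted p under 0.05 stood 1 of 9 on deposited TPM, Nt5e, where 10.3% of all tested genes did, and 2 of 9 on scaled TPM, Nt5e and Pdcd1lg2, where 14.8% did. The median of the 9 was 0.21 above the median gene, with 6 genes above it and 3 below.

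The 10 genes spanned a wide range of levels. Nt5e had the highest TPM of the 10 in all 7 libraries, from 6.55 to 203, and Ctla4 the lowest, from 0 to 0.483. Cd276 came next after Nt5e in 6 of the 7 libraries and after Pdcd1lg2 in TIS sEV replicate 2. The means over the 7 libraries were 90.9 TPM for Nt5e, 14.1 for Cd276, 6.57 for Cd274, 5.60 for Vsir, 4.62 for Havcr2, 4.44 for Entpd1, 3.76 for Pdcd1lg2, 3.21 for Lag3, 2.36 for Pdcd1 and 0.269 for Ctla4. From Cd274 down to Lag3, each pair of neighbours in this order changed places in at least 1 library. Lag3 exceeded Pdcd1 in all 7, although their ranges overlapped (0.623 to 6.80 and 0.339 to 5.13 TPM).

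**Figure D1:**
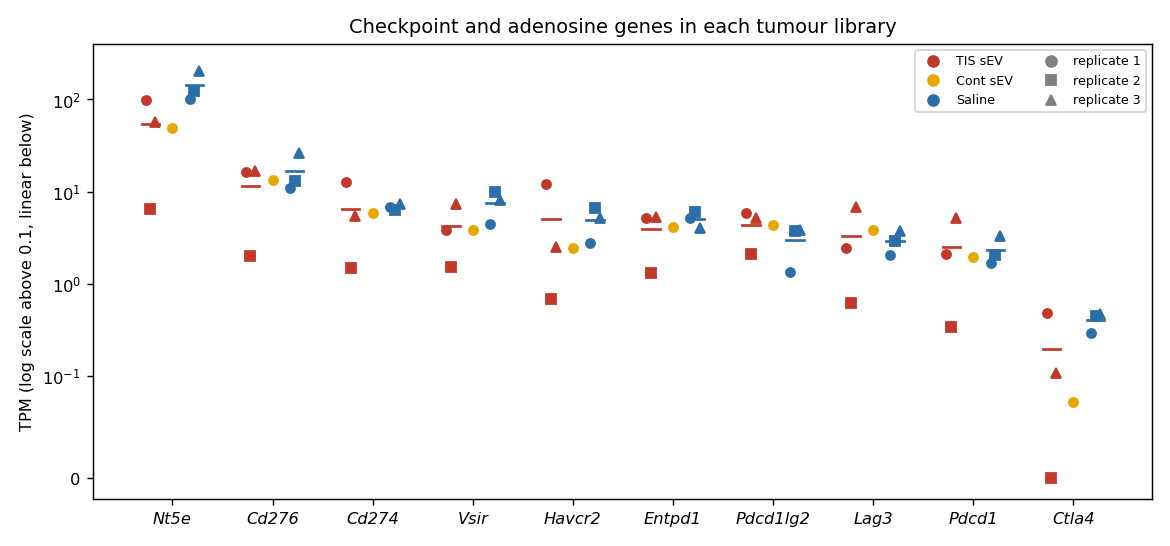
TPM of the 10 genes in each library, on an axis that is logarithmic above 0.1 and linear below, with genes in order of their mean. Colours mark the groups, symbols the replicate numbers and horizontal lines the means of the groups with 3 libraries. TIS sEV replicate 2 (red squares) is the lowest library for 9 of the 10 genes, and Pdcd1lg2 is the exception, with 2.09 TPM there against 1.34 TPM in Saline replicate 1.

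Among the ligands, Cd274 encodes PD-L1, the main partner of PD-1, and lies on chromosome 19 (29367455 to 29388095, GRCm38, plus strand). It had 12.6, 1.49 and 5.49 TPM in the TIS sEV libraries, 5.86 in Cont sEV and 6.77, 6.36 and 7.41 in Saline. The Saline libraries were close together, while the TIS sEV libraries lay on both sides of them. Scaled TPM was 10.1, 4.23 and 5.53 in TIS sEV, 5.85 in Cont sEV and 6.72, 4.21 and 4.91 in Saline. The difference between TIS sEV and Saline relative to the median gene was 0.24 (log2, SE 0.63, limma adjusted p = 0.709). On scaled TPM it was 0.23 (SE 0.32, adjusted p = 0.717), with a 95% interval of -0.52 to 0.98. An annotated antisense gene overlaps its exons and was listed at no more than 0.0252 TPM.

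Pdcd1lg2 encodes PD-L2, the second ligand of PD-1, carried mainly by dendritic cells and macrophages. Its gene (29410919 to 29471161, plus strand) starts 22.8 kb beyond the end of Cd274. It had 5.80, 2.09 and 5.17 TPM in TIS sEV, 4.30 in Cont sEV and 1.34, 3.75 and 3.86 in Saline. On this scale the groups overlapped through TIS sEV replicate 2. Scaled TPM was 4.65, 5.94 and 5.21 in TIS sEV, 4.30 in Cont sEV and 1.33, 2.49 and 2.56 in Saline. After scaling, the lowest of the 4 vesicle libraries was above the highest Saline library, which held for 9.11% of all tested genes in this direction and for 10.4% in the other. Mean scaled TPM was 5.27 ± 0.647 in TIS sEV and 2.12 ± 0.692 in Saline (SD, n = 3 each), a ratio of 2.48. The difference relative to the median gene was 1.04 (SE 0.57, limma adjusted p = 0.649) on deposited TPM and 1.03 (SE 0.23, adjusted p = 0.338) on scaled TPM. On scaled TPM its 95% interval, not adjusted for the number of genes, was 0.49 to 1.57 with an unadjusted p of 0.00284. Neither fit called it. On deposited TPM, leaving out each TIS sEV or Saline library in turn gave 0.86 to 1.14.

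After scaling, the dendritic cell list had a higher summed level in each vesicle library than in each Saline library, by little for TIS sEV replicate 1, and on deposited TPM the sums overlapped (7.99 to 18.8 in TIS sEV, 16.0 in Cont sEV and 8.52 to 14.6 in Saline). Its 8 genes summed to 9.80 to 22.7 scaled TPM in TIS sEV, 16.0 in Cont sEV and 6.00 to 9.66 in Saline. Only 2 of the 8 were tested, Batf3, a transcription factor of cross-presenting dendritic cells (relative difference 1.02, SE 0.64), and the integrin Itgax (-0.06, SE 0.46), and neither passed. Batf3 averaged 8.66 ± 4.75 TPM in TIS sEV and 5.77 ± 0.497 in Saline, and Itgax 1.24 ± 0.981 in TIS sEV and 2.78 ± 2.39 in Saline (SD, n = 3 each). Batf3 was the largest part of the summed TPM in each library. Among the untested genes, Zbtb46 averaged 0.585 TPM in TIS sEV and 1.17 in Saline. Cd209a averaged 1.38 and 0.415 TPM, with 2.82 in TIS sEV replicate 2, and Ccr7 0.982 and 0.358 TPM. Clec9a was at 0 in TIS sEV replicate 3, and Xcr1 and Flt3 stayed under 0.2 TPM. The macrophage and monocyte list overlapped, at 418 to 1655 scaled TPM in TIS sEV, 999 in Cont sEV and 547 to 1194 in Saline. The part of these cells in the level of Pdcd1lg2 was not tested. In bulk tissue, a change in the number of cells of a type and a change in RNA per cell cannot be told apart.

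The upstream sequences of the neighbours Cd274 and Pdcd1lg2 are shown because the pair shares a receptor and a stretch of chromosome 19 while only Pdcd1lg2 separated the groups after scaling. They are the 250 bases before each RefSeq start on GRCm38.p6, plus strand, 5′ to 3′, at chr19:29367188-29367437 for Cd274 and chr19:29410669-29410918 for Pdcd1lg2. Capitals mark every match, on either strand, to 6 motifs. These were the hypoxia response cores ACGTG and GCGTG, the STAT type TTCNNNGAA, the interferon response type (GAAA, any 2 bases, GAAA), the NF-kB type (GGGA, any 4 bases, CC) and the GC box GGGCGG.
Cd274: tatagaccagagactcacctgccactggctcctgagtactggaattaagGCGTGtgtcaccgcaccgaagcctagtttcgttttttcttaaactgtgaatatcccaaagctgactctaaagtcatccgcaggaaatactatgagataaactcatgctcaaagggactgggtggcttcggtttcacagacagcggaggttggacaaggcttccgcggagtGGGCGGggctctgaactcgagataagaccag
Pdcd1lg2: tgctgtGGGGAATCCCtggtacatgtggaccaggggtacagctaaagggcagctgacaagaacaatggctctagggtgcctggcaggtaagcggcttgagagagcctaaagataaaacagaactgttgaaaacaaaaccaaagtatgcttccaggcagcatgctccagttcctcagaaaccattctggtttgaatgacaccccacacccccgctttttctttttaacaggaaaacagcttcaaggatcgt
The Cd274 window held 1 GCGTG, starting 201 bases before the start, and 1 GGGCGG, starting 31 bases before it. The Pdcd1lg2 window held 1 NF-kB type match, starting 244 bases before the start. No match overlapped another motif in these windows. Of all 32851 RefSeq windows of the same length, 28.2% held GCGTG, 32.7% GGGCGG, 17.6% the NF-kB type, 16.6% ACGTG, 7.02% the STAT type and 2.98% the interferon type. The Cd274 window held 11 CpG and the Pdcd1lg2 window 3, where the median over all windows was 6. Among the 10 genes, 9 had a window in the table.

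Cd276 encodes B7-H3, a ligand found on many carcinoma and stromal cells (chromosome 9, 58524298 to 58555437, minus strand). It had 16.3, 2.02 and 16.6 TPM in TIS sEV, 13.5 in Cont sEV and 11.0, 13.0 and 26.5 in Saline. The groups overlapped, and without TIS sEV replicate 2 the sign of the difference turned. The relative difference was -0.16 (SE 0.66, limma adjusted p = 0.518), and 0.26 without that library. On scaled TPM it was -0.11, with a 95% interval of -1.08 to 0.86. An annotated transcript on the opposite strand, Gm10657, shares exonic bases with it and was listed at 0 to 0.522 TPM.

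Vsir encodes VISTA, a checkpoint protein of myeloid cells and resting T cells that can act as ligand or receptor. The gene lies on chromosome 10 (60346851 to 60372684, plus strand) inside Cdh23, which runs on the opposite strand with no shared exons and reached 0.156 TPM at most. Vsir had 3.85, 1.54 and 7.33 TPM in TIS sEV, 3.85 in Cont sEV and 4.50, 9.99 and 8.16 in Saline. Scaled TPM was 3.09, 4.37 and 7.39 in TIS sEV, 3.85 in Cont sEV and 4.47, 6.62 and 5.41 in Saline. The groups overlapped on both scales. The relative difference was -0.19 (SE 0.61, limma adjusted p = 0.498), and it turned to 0.06 without TIS sEV replicate 1.

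**Figure D2:**
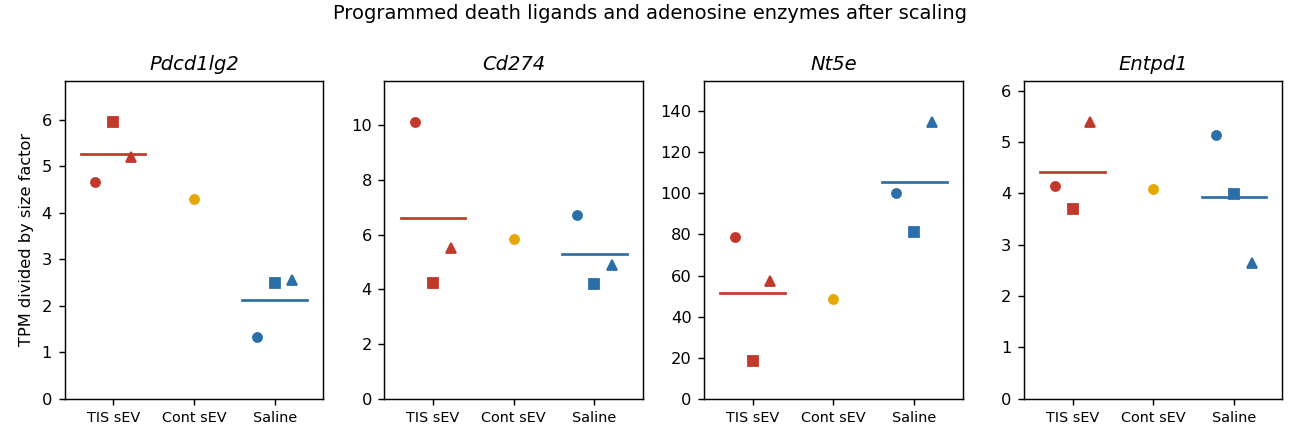
TPM divided by the size factor for Pdcd1lg2, Cd274, Nt5e and Entpd1, 1 point per library, with symbols for the replicate numbers as circle, square and triangle for 1, 2 and 3 and lines at the means of the groups with 3 libraries. The vesicle libraries lie at 4.30 to 5.94 for Pdcd1lg2, above the Saline libraries at 1.33 to 2.56, and at 18.6 to 78.8 for Nt5e, below the Saline libraries at 81.2 to 134, while Cd274 and Entpd1 overlap.

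The 4 receptors overlapped between the groups. Pdcd1, which encodes PD-1 of activated and exhausted T cells (chromosome 1, 94038305 to 94052553, minus strand), had 2.09, 0.339 and 5.13 TPM in TIS sEV, 1.93 in Cont sEV and 1.67, 2.06 and 3.32 in Saline. Lag3, a receptor that binds MHC class II (chromosome 6, 124904361 to 124911705, minus strand), had 2.46, 0.623 and 6.80 TPM in TIS sEV, 3.82 in Cont sEV and 2.05, 2.93 and 3.77 in Saline. Both genes were highest in TIS sEV replicate 3 and lowest in TIS sEV replicate 2. Their relative differences were 0.46 for Pdcd1 (SE 0.48, limma adjusted p = 0.836) and 0.49 for Lag3 (SE 0.53, adjusted p = 0.884). Without TIS sEV replicate 3 these were 0.06 and 0.05. With all libraries and on scaled TPM, the relative differences were 0.23 for Pdcd1 (SE 0.41) and 0.35 for Lag3 (SE 0.40).

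Havcr2 encodes TIM-3, found on exhausted T cells and on myeloid cells (chromosome 11, 46454935 to 46481255, plus strand). It had 12.0, 0.689 and 2.53 TPM in TIS sEV, 2.43 in Cont sEV and 2.80, 6.70 and 5.19 in Saline. A single library, TIS sEV replicate 1, was high, and the other 2 TIS sEV libraries were below all Saline libraries. The relative difference was 0.21 (SE 0.58, limma adjusted p = 0.662), and -0.31 without TIS sEV replicate 1. On scaled TPM the 95% interval was -1.03 to 1.23.

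Ctla4, the receptor that competes with CD28 for CD80 and CD86 (chromosome 1, 60887000 to 60915832, plus strand), stayed under 0.5 TPM in every library and was not tested. It had 0.483, 0 and 0.107 TPM in TIS sEV, 0.0749 in Cont sEV and 0.296, 0.448 and 0.471 in Saline. A TPM listed at 0 at unknown depth does not show absence. Of the other genes of this axis, Cd28, the activating receptor, was at 0.0130 to 0.152 TPM and the ligand Cd80 at 0.0361 to 1.19 TPM. The ligand Cd86 was higher, with 2.00, 0.755 and 5.25 TPM in TIS sEV, 5.86 in Cont sEV and 1.71, 5.87 and 3.36 in Saline. Cd86 overlapped between the groups and did not pass (relative difference 0.18, SE 0.55, limma adjusted p = 0.628).

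No T cell gene passed the test. After scaling, their summed level was higher in each TIS sEV library than in Cont sEV or any Saline library, while on deposited TPM the sums overlapped (60.5, 19.6 and 86.3 in TIS sEV, 34.3 in Cont sEV and 28.8, 43.3 and 52.9 in Saline). The 14 genes of the list summed to 48.6 to 86.9 scaled TPM in TIS sEV, 34.2 in Cont sEV and 28.6 to 35.1 in Saline. On deposited TPM all 11 tested genes lay above the median gene, with a median relative difference of 0.73 (0 at an unadjusted limma p under 0.05). On scaled TPM the list's median was 0.52 (5 at an unadjusted limma p under 0.05). There Cd3e lay below the median gene, at -0.0145 against -0.0037. Cd3e was at 0 in TIS sEV replicate 2. Of the regulatory and exhausted T cell list, 1 of 8 genes was tested, and Foxp3, which defines regulatory T cells, stayed between 0.0470 and 0.140 TPM. B and plasma cell genes summed to 23.4 to 420 scaled TPM in TIS sEV, 39.2 in Cont sEV and 1.65 to 7.34 in Saline, and 2 of 3 tested were called higher in TIS sEV, with 0 called on scaled TPM. The sums for natural killer cells, neutrophils and endothelial cells overlapped. The part of these cells in the receptor levels was not tested.

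Of the enzymes, Nt5e separated the groups and Entpd1 did not, a contrast that the ratio of both describes below. Entpd1 encodes CD39, which takes ATP and ADP to AMP (chromosome 19, 40612366 to 40741602, plus strand). It had 5.17, 1.30 and 5.35 TPM in TIS sEV, 4.09 in Cont sEV and 5.17, 6.02 and 4.00 in Saline. Scaled TPM was 4.15, 3.70 and 5.38 in TIS sEV, 4.09 in Cont sEV and 5.13, 3.99 and 2.65 in Saline, with the groups overlapping. The relative difference was 0.20 (SE 0.59, limma adjusted p = 0.661) and 0.16 on scaled TPM (95% interval -0.43 to 0.75).

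Nt5e encodes CD73, the membrane enzyme that forms adenosine from AMP (chromosome 9, 88327197 to 88372092, plus strand). It had 98.2, 6.55 and 56.7 TPM in TIS sEV, 48.6 in Cont sEV and 101, 123 and 203 in Saline. All 4 vesicle libraries were below all Saline libraries, by little for TIS sEV replicate 1 (98.2 against 101 TPM in Saline replicate 1). On deposited TPM 12% of all tested genes were lower in this way. Scaled TPM was 78.8, 18.6 and 57.1 in TIS sEV, 48.5 in Cont sEV and 100.1, 81.2 and 134 in Saline. Mean scaled TPM was 51.5 ± 30.5 in TIS sEV and 105 ± 27.0 in Saline (SD, n = 3 each), a ratio of 0.489. The relative difference was -1.35 (SE 0.63, limma adjusted p = 0.208) on deposited TPM and -1.21 (SE 0.51, adjusted p = 0.338) on scaled TPM. It was -0.66 without TIS sEV replicate 2 (adjusted p = 0.433). It was -1.81 without TIS sEV replicate 1, and there Nt5e passed (adjusted p = 0.0131). That fit kept TIS sEV replicate 2, rich in ribosomal RNA, and in it the median gene itself differed by -0.90. Limma called 353 of all 12058 tested genes there. The p-value refers to the difference before that of the median gene is subtracted.

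Hypoxia is a known inducer of Nt5e, and the summed scaled level of hypoxia genes was lower in every vesicle library than in every Saline library. The 10 genes of the hypoxia list summed to 1082 to 1554 scaled TPM in TIS sEV, 1446 in Cont sEV and 1564 to 2192 in Saline. The gap was small between TIS sEV replicate 1 (1554) and Saline replicate 3 (1564). Ldha and Pgk1 made the largest parts of the sum in each library. Relative to the median gene on deposited TPM 9 of the 10 were lower, and the list's median was -0.64 (-0.47 on scaled TPM). Limma called 0 of them (6 at an unadjusted p under 0.05 on deposited TPM, 3 on scaled TPM, and 2 called without TIS sEV replicate 1). Of the 3 on scaled TPM, Ldha (-0.70) and Hif1a (-0.69), the main hypoxia-inducible factor subunit, were lower, while Epas1, which encodes the related HIF-2 alpha, was higher (1.27), each with a limma adjusted p of 0.338. On deposited TPM Epas1 was the 1 gene of the list above the median gene, while on scaled TPM Egln3 (0.06) also lay above it. Epas1, Hif1a and Egln3 were picked out after their values were seen. The relative difference of Ldha, a lactate dehydrogenase, was -0.88 (SE 0.55, adjusted p = 0.388), that of the carbonic anhydrase Car9 -1.04 (SE 0.63, adjusted p = 0.399), of the glucose transporter Slc2a1 -0.98 (SE 0.64, adjusted p = 0.446) and of the mitophagy receptor Bnip3 -0.74 (SE 0.64, adjusted p = 0.476). The epithelial tumour cell list overlapped between groups in its sum, at 1434 to 2442 scaled TPM in TIS sEV, 2609 in Cont sEV and 1405 to 2767 in Saline. Of its 6 tested genes, 5 lay below the median gene, among them Cdh1 (-0.98), Cldn4 (-0.77), Krt18 (-0.54) and Krt8 (-0.46), and Krt14 lay above it (1.13). The list's median was -0.58, and limma called 0 of the 6 (4 at an unadjusted p under 0.05 on deposited TPM, 0 on scaled TPM, and 1 called without TIS sEV replicate 1). The fibroblast list also overlapped (119 to 222 in TIS sEV, 113 in Cont sEV, 58.9 to 185 in Saline). The part of hypoxia or of these cells in the level of Nt5e was not tested.

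**Figure D3:**
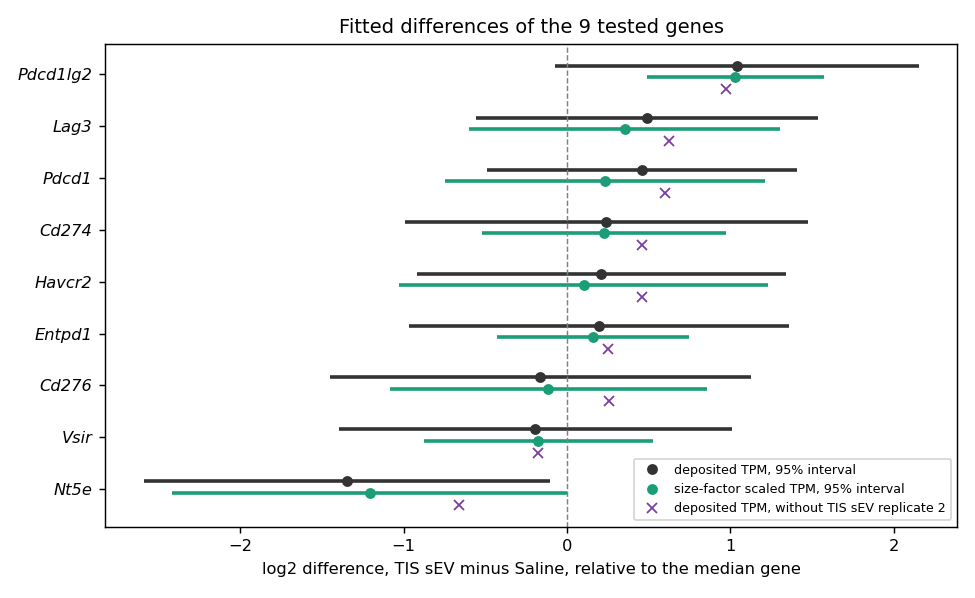
Fitted log2 differences between TIS sEV and Saline, relative to the median gene, for the 9 tested genes, with 95% intervals not adjusted for the number of genes (black, deposited TPM; green, scaled TPM) and values without TIS sEV replicate 2 (crosses). Pdcd1lg2 has the highest value (1.04) and Nt5e the lowest (-1.35), and the cross of Nt5e at -0.66 lies nearer to 0.

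Without an added constant, ratios within a library do not depend on its share of ribosomal RNA. The tested log2 ratios had 0.1 TPM added to each gene, which weighs more on low genes in TIS sEV replicate 2. The ratio of Nt5e to Entpd1 was 19.0, 5.02 and 10.6 in TIS sEV, 11.9 in Cont sEV and 19.5, 20.3 and 50.7 in Saline. No TIS sEV library reached a Saline library, although TIS sEV replicate 1 came close. With 0.1 TPM added to each gene, the mean log2 ratio was 3.28 in TIS sEV and 4.74 in Saline, a difference of -1.46 (two-sided exact permutation p = 0.1, adjusted p = 0.5 over 5 pairs). The smallest p that 3 against 3 libraries allow is 0.1. The difference was -0.94 without TIS sEV replicate 2.

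The ratio of PD-L2 to PD-L1 transcripts, Pdcd1lg2 to Cd274, was 0.460, 1.404 and 0.942 in TIS sEV, 0.734 in Cont sEV and 0.197, 0.590 and 0.522 in Saline. TIS sEV replicate 1, with its high Cd274, fell among the Saline libraries. The log2 difference of 1.07 had an exact permutation p of 0.3 (adjusted p = 0.75). The ratios of Cd274 to Pdcd1, Havcr2 to Pdcd1 and Cd276 to Cd274 overlapped, with log2 differences of -0.06, -0.22 and -0.40 (exact permutation p = 0.9, 1 and 0.5).

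Relative to the leukocyte gene Ptprc, Pdcd1lg2 stood at 1.85, 4.11 and 2.12 in TIS sEV, 1.84 in Cont sEV and 0.480, 0.612 and 0.9005 in Saline. The log2 difference with 0.1 TPM added was 1.87 (exact permutation p = 0.1, adjusted p = 0.429 over 10 genes), and the groups did not overlap. Scaled Ptprc was itself lower in TIS sEV (2.51, 1.45 and 2.46) than in Saline (2.76, 4.06 and 2.84), and a lower denominator raises this ratio. The other 9 genes overlapped between TIS sEV and Saline in their ratio to Ptprc, with exact permutation p of 0.2 to 0.6. Nt5e differed by -0.70 in this ratio (exact permutation p = 0.3, adjusted p = 0.429). The share of all tested genes that separate TIS sEV from Saline in a ratio was not computed, to Ptprc or for pairs of genes. In levels on scaled TPM, 23.7% of all tested genes did not overlap between TIS sEV and Saline.

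**Figure D4:**
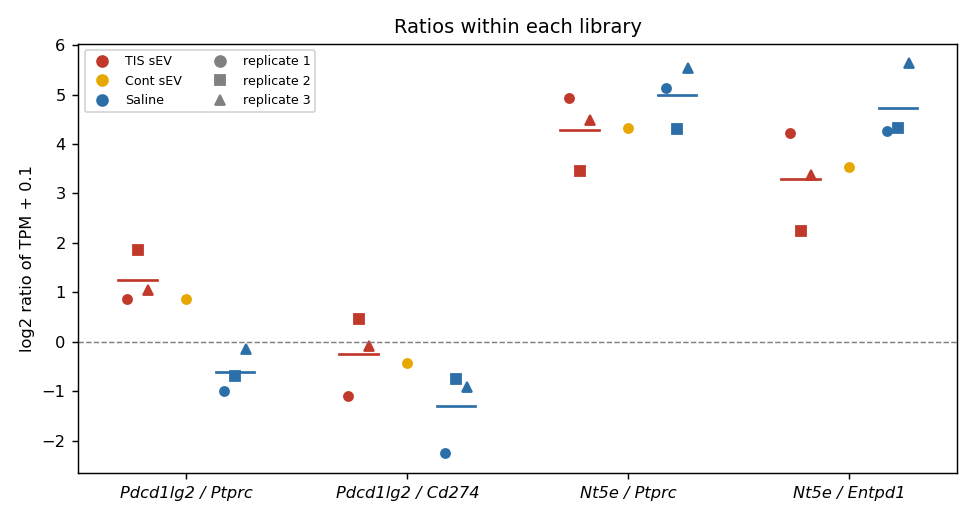
Log2 ratios of TPM + 0.1 within each library for 4 pairs of genes, with colours for the groups, symbols for the replicate numbers and lines at the means of the groups with 3 libraries. For Pdcd1lg2 to Ptprc the TIS sEV mean is 1.26 and the Saline mean -0.62 with no overlap. For Nt5e to Entpd1 the means are 3.28 and 4.74.

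Against the single Cont sEV library, TIS sEV tumours showed no called difference in these genes. Limma called 0 of 9, where 0.224% of all tested genes were called, and 0 of the 9 had an unadjusted p under 0.05, where 1.73% of all did. On scaled TPM both counts were also 0, against 0.00829% and 4.86% of all tested genes. Relative differences ran from -0.28 for Cd276 (SE 0.93) to 0.60 for Havcr2 (SE 0.81). For Pdcd1lg2 the difference was 0.22, with a 95% interval of -1.35 to 1.80, and for Nt5e -0.21, with an interval of -1.97 to 1.55. Intervals of this width do not show that the vesicle groups were alike.

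Between Cont sEV and Saline, limma also called 0 of 9, where 0.207% of all tested genes were called, and 0 of the 9 had an unadjusted p under 0.05, where 2.33% of all did. On scaled TPM it called 0 of 9, against 0.00829% of all, and 1 of 9 had an unadjusted p under 0.05, against 12.8%. Nt5e differed by -1.13 relative to the median gene (SE 0.90, adjusted p = 1.00) and Pdcd1lg2 by 0.82 (SE 0.80, adjusted p = 1.00). On scaled TPM the values were -1.07 (SE 0.72) and 0.79 (SE 0.32), and Pdcd1lg2 had an unadjusted p of 0.0451 (adjusted p = 0.386). This comparison and that of TIS sEV share the Saline libraries, so the like signs are no independent support. Lag3 (0.65) and Havcr2 (-0.39) lay on either side of the median gene.

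The wider checkpoint network was measured through 32 partner and costimulatory genes, of which 16 were tested and 0 called between TIS sEV and Saline (0 at an unadjusted p under 0.05, and 2 on scaled TPM). Their median was 0.14 above the median gene. The 4 with the smallest p were Pvr, a ligand of TIGIT (9.21 ± 7.93 TPM in TIS sEV and 14.3 ± 4.40 in Saline, SD, n = 3 each), Tnfrsf9, the costimulatory receptor 4-1BB (20.1 ± 16.0 and 32.1 ± 15.0 TPM), Tnfrsf14, the BTLA ligand HVEM, and Cd47, the signal that restrains phagocytes. Their relative differences were -0.47, -0.39, 0.10 and -0.13, and their limma adjusted p was 0.476 to 0.519. The log2 differences on scaled TPM were -0.54, -0.31, -0.10 and 0.04, so Tnfrsf14 and Cd47 turned sign. On scaled TPM, 2 further genes, picked out after their values were seen, were higher at an unadjusted p under 0.05. Cd200, a ligand that quiets myeloid cells, differed by 1.26 (adjusted p = 0.338), and Lgals9, which encodes galectin-9, a ligand of TIM-3, by 0.80 (adjusted p = 0.338).

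The other genes of extracellular nucleotide and adenosine handling gave 0 calls among 13 tested of 21 listed, with a median 0.27 above the median gene (1 at an unadjusted p under 0.05, Slc29a1, and 1 on scaled TPM, Enpp1). Slc29a1, a transporter that carries adenosine across the membrane, had 75.7, 13.9 and 164 TPM in TIS sEV, 82.4 in Cont sEV and 109, 160 and 192 in Saline. The groups overlapped, and its relative difference was -0.78 (SE 0.63, limma adjusted p = 0.476). Adk, which phosphorylates adenosine back to AMP, differed by -0.25, the ATP receptor P2rx7 by -0.09 and Enpp1, an ectoenzyme that cleaves ATP to AMP, by 1.13 (SE 0.43, adjusted p = 0.515). The adenosine receptor Adora2b stayed between 0.0973 and 2.29 TPM, and Adora2a, the main receptor on T cells, between 0.0894 and 0.434 TPM.

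Interferon-gamma is the best known inducer of PD-L1, and CMTM6 and CMTM4 are proteins that stabilise it. All 15 genes of this list were tested and 0 were called (0 at an unadjusted p under 0.05, and 4 on scaled TPM), with 8 above and 7 below the median gene and a median of 0.03. The 4 with the smallest p were Jak1, a kinase of the interferon receptor (relative difference -0.59), Cmtm4 (-0.46), Ifngr1, a chain of the receptor (-0.53), and Cmtm6 (-0.44), with limma adjusted p of 0.476. Jak1 had 12.8, 3.92 and 9.79 TPM in TIS sEV, 9.08 in Cont sEV and 14.0, 22.2 and 24.7 in Saline, with no overlap, as 12% of all tested genes were lower in all 4 vesicle libraries than in Saline. Of the 4 genes at an unadjusted p under 0.05 on scaled TPM, Jak1 (-0.48) and Cmtm4 (-0.51) were lower, while the interferon-induced chemokines Cxcl11 (0.83) and Cxcl9 (0.80), named after their values were seen, were higher, each with a limma adjusted p of 0.338. Irf1, a transcription factor induced by interferon-gamma, lay 0.22 above the median gene without passing.

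**Figure D5:**
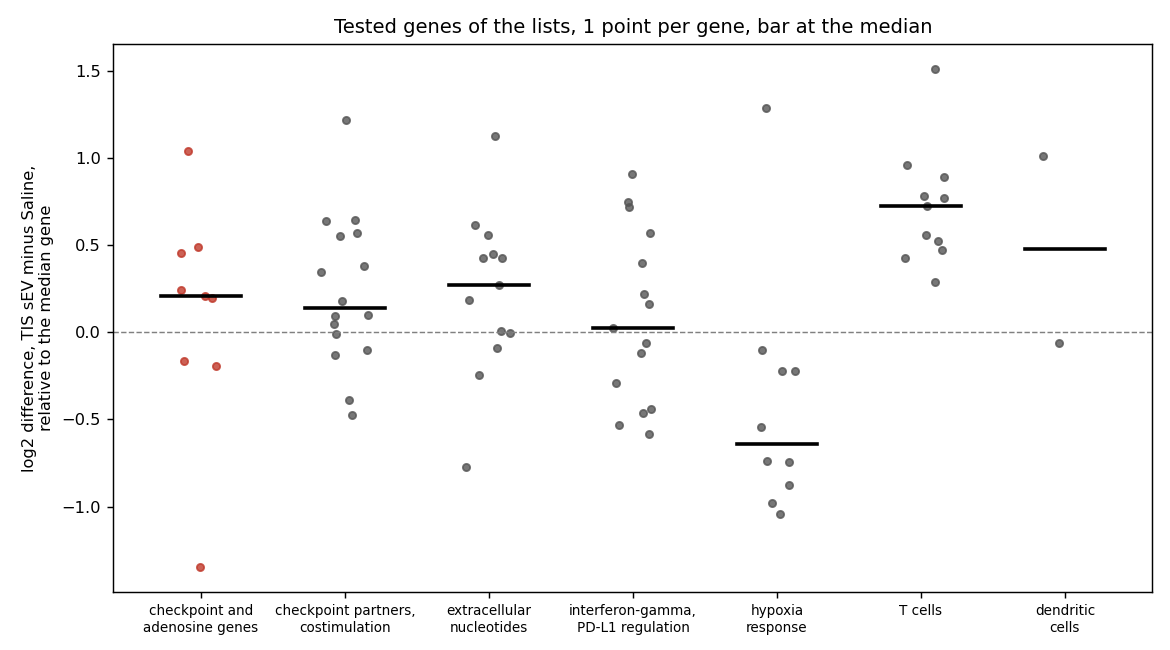
Log2 differences between TIS sEV and Saline on deposited TPM, relative to the median gene, 1 point per tested gene. Red marks the checkpoint and adenosine genes and grey the 6 lists, with a bar at each list's median. The hypoxia median lies at -0.64 and the T cell median at 0.73, and the checkpoint and adenosine genes spread from -1.35 to 1.04.

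For the 4 genes with a mean of at least 5 TPM, the protein-coding genes with the most similar profile across the 7 libraries were looked up among 7262 genes, by the root mean square difference of centred log2 scaled TPM. Nt5e was nearest to Enpp5 (0.12), Ptprk (0.17) and Trrap (0.18), where the median gene was at 0.90. Cd274 was nearest to Glrx (0.11), Ajuba (0.18) and Gm47283 (0.18), with the median gene at 0.49. Cd276 was nearest to Large2, Tor3a and Tmbim6 (0.16 to 0.17), and Vsir to Slc25a29, Atg13 and Nudt4 (0.13 to 0.16). These are descriptions over 7 libraries, with no test.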

How the data were processed

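Bulk RNA of 7 tumour libraries was analysed. The authors deposited 1 table of TPM values. The submitters' processing notes list FastQC (0.11.9), Trim Galore (0.6.6), Salmon (1.4.0), DESeq2 (1.28.0) and build GRCm38.p6. The annotation, the summing to genes and the use of strand are not given here. Symbols and positions came from GENCODE M21 (GRCm38), which held 55227 of 55487 identifiers, and promoter windows from RefSeq (GRCm38.p6).

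A gene was tested if it reached 1 TPM in 3 or more libraries (12058 genes). Limma (3.58.1, R 4.3.3) was fitted to log2(TPM + 1), a scale that understates the change of low genes. Because the median gene was lower in TIS sEV than in Saline, low genes can stand too high relative to it on deposited TPM. A mean per group was fitted over all libraries with an intensity trend, so the single Cont sEV library was taken to vary as the others do. Tests were two-sided, and p-values were adjusted by Benjamini-Hochberg over all tested genes. They refer to the fitted difference, not to the difference relative to the median gene. The prior degrees of freedom were infinite on deposited TPM, where the trend alone set each gene's spread, and 3.04 on scaled TPM. The fit was also run on simulated data, with independent noise of the same spread for all genes and no shift of whole libraries. This does not cover a library that stands apart, such as TIS sEV replicate 2.

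The genes and lists were chosen with earlier results of these data known. All 10 genes were named, and in each pathway list the called genes and, up to 4, those with the smallest p. Alternatives were size factors, rescaling over protein-coding genes, a pseudocount of 0.1, no filter, no trend, a replicate block and leaving out each TIS sEV or Saline library.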

Additional observations from a re-analysis of the deposited data

How the results depend on the processing

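Depth is unknown, so no counting error could be given, and 3 libraries against 3 or 1 leave wide intervals. None of the 9 tested genes was called in any comparison under any setting run, with 1 exception, Nt5e between TIS sEV and Saline without TIS sEV replicate 1 (members called 0 to 1 over the fits without 1 library). The number of all genes called between TIS sEV and Saline was 62, and 0 with size factors, 0 with rescaling over protein-coding genes, 0 with no filter, 39 with no trend, 0 with size factors and without TIS sEV replicate 2 (an alternative chosen after seeing the data) and 7 to 353 without 1 library. Between TIS sEV and Cont sEV it was 27, and in the same order 1, 2, 246, 12, 1 and 10 to 103. Between Cont sEV and Saline it was 25, and 1, 2, 233, 16, 1 and 11 to 197. The cause was not tested.

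With the replicate number as a block, the counts were 14, 5 and 9, and none of the 9 was called. Deviations of same-numbered TIS sEV and Saline libraries from their group means had r of -0.34, -0.01 and 0.07 across genes. Those of different-numbered libraries had r of -0.29 to 0.32. With 3 libraries per group these values cannot show whether the numbers mark pairs. The block turned the sign of 5 uncalled differences against or of Cont sEV. Between TIS sEV and Cont sEV these were Pdcd1lg2 (-0.023), Vsir (-0.14) and Nt5e (0.22), and between Cont sEV and Saline Cd274 (-0.32) and Entpd1 (-0.0367).

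Of 162 differences of the 9 tested genes under settings that kept all libraries, 157 kept their direction and their side of the threshold. Of 189 without 1 library, 170 did. Uncalled differences that turned sign ranged, between TIS sEV and Saline, from -0.0629 to 0.46 for Cd274, -0.31 to 0.48 for Havcr2, -0.47 to 0.0629 for Vsir, -0.46 to 0.26 for Cd276 and -0.015 to 0.38 for Entpd1. Between TIS sEV and Cont sEV they ranged from -0.20 to 0.31 for Cd274, -0.10 to 0.54 for Pdcd1, -0.60 to 0.13 for Lag3, -0.0401 to 0.49 for Vsir, -0.58 to 0.13 for Cd276, -0.68 to 0.47 for Nt5e and -0.008 to 0.16 for Entpd1. Between Cont sEV and Saline they ranged from -0.0781 to 0.41 for Cd276 and -0.11 to 0.27 for Entpd1. With size factors and without TIS sEV replicate 2, Cd276 turned to 0.28 between TIS sEV and Saline and to 0.12 between TIS sEV and Cont sEV, and Nt5e to 0.45 between TIS sEV and Cont sEV. Log2 ratios that turned sign were those of Ctla4 to Ptprc (-0.0083 to 0.56), Cd274 to Pdcd1 (-0.58 to 0.64) and Havcr2 to Pdcd1 (-1.07 to 0.66).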

Other observations

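Tigit, a further checkpoint receptor of T and NK cells, was chosen here after its values were seen. It had 59.6, 5.17 and 6.91 TPM in TIS sEV, 9.47 in Cont sEV and 10.8, 25.2 and 14.7 in Saline, so that TIS sEV replicate 1 was far above the other libraries, as it was for Havcr2. The same library was also the highest for the granzymes Gzmb (20.3, 0.558 and 8.99 TPM in TIS sEV, 3.19 in Cont sEV and 7.42, 15.5 and 11.8 in Saline) and Gzma (19.9, 1.92 and 6.60 in TIS sEV, 4.69 in Cont sEV and 5.35, 11.4 and 7.38 in Saline). The granzymes belong to the natural killer cell list, and its other genes were not highest there. Prf1 and Klrk1 were highest in TIS sEV replicate 3 (3.77 and 2.71 TPM), against 2.94 and 2.30 in TIS sEV replicate 1. Ncr1 was highest in Saline replicate 2 and Klrb1c in Cont sEV. The summed T cell list in TIS sEV replicate 1 was 60.5 TPM, above each Saline library (28.8 to 52.9 TPM) and below TIS sEV replicate 3. Tigit exceeded Pdcd1 in TPM in each of the 7 libraries. In TIS sEV replicate 3, by contrast, Pdcd1, Lag3 and the T cell list (86.3 TPM) were at their highest.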
